A study of Mus musculus with 12 samples.

Results

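Transcripts of 9 genes that encode the protein parts of lipoproteins, the receptors that bind lipoproteins and the enzyme LCAT were followed through spleen and axillary lymph node. The genes were Apoa1, Apoe, Apoc1, Apoc2, Apob, Lrp1, Vldlr, Scarb1 and Lcat. They were chosen by symbol, with earlier results of these data known, and all 9 were found among the 23284 symbols of both count tables. Mice without apoE and apoA-I (DKO) were set beside DKO mice that also overexpress human apoA-I (DKO/hA-I), so the double deficiency is shared by every group. Each of the 4 groups (2 tissues, 2 genotypes) had 3 libraries of poly(A) RNA, from mice 30 weeks old on normal laboratory diet. The sources used here do not give the promoter of the transgene, the sex of the mice or any pooling of animals. The question the design poses is how the genotype with human apoA-I differs from DKO in each lymphoid tissue.

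Apolipoproteins are the protein coat of lipoprotein particles, and several are ligands of receptors of the LDL receptor family, which carry particles into cells. High density lipoprotein is built on apoA-I, takes up cell cholesterol, has it esterified by LCAT and delivers it to cells through the receptor encoded by Scarb1. The liver makes most circulating apolipoproteins and LCAT, while macrophages also make apoE and the C apolipoproteins.

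Libraries held 5911835 to 11950825 counts. DKO node 2 held the fewest, and every other library held at least 8966001. A floor of 3 counts lay between 0.258 and 0.506 CPM, the count as a share of its library after scaling for library composition. Intervals on counts below treat the summed counts of a group's 3 libraries as independent reads, so they leave out the spread between libraries. The reads carry no molecular identifier, so repeated copies of a molecule could make these intervals too narrow even for counting error. Animal codes in the labels differ between libraries, and what the p-values take as error is the spread from library to library. The tissue labels were borne out by markers: summed red pulp macrophage markers ran from 4335 to 4777 CPM in spleens and from 652 to 1861 CPM in nodes. By contrast, 1 transcript, the pseudogene Rpl31-ps12, followed the genotype labels in opposite directions in the 2 tissues. It stood at 90.1, 58.5 and 65.7 CPM in the node libraries labelled DKO and at 0.0929, 0.0903 and 0.107 CPM in those labelled DKO/hA-I. In spleen it stood at 0.221, 0.0977 and 0.200 CPM in libraries labelled DKO and at 52.7, 74.6 and 68.0 CPM in those labelled DKO/hA-I. Every direction between genotypes below is therefore that of the labels, and exchanged labels in a tissue would turn all of its directions. The comparisons between tissues within a genotype would then set unlike genotypes side by side. The test of the difference between tissues would no longer be a difference. In nodes, the middle number of the animal code separates DKO from DKO/hA-I completely, so genotype and whatever that number marks cannot be told apart there. Spleen and node libraries have no middle number in common either. Comparisons between tissues, and the test of the difference between tissues, carry the same limit for tissue.

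In CPM per kilobase of merged exons, Lrp1 was first in 3 of the 4 groups. It averaged 36.7 ± 3.75 (SD, n = 3) in DKO spleens, 33.0 ± 4.45 in DKO/hA-I spleens, and 40.3 ± 22.9 in DKO nodes against 8.30 ± 2.22 in DKO/hA-I nodes. Apoc1 came next in the first 3 groups at 16.5 ± 4.13, 14.0 ± 2.20 and 30.3 ± 8.81, and its range overlapped that of Lrp1 in DKO nodes and that of Scarb1 in DKO/hA-I spleens. In DKO/hA-I nodes Scarb1 (10.5 ± 0.851), Apoc1 (8.83 ± 2.52) and Lrp1 had overlapping ranges at the top of the order.

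Scarb1 per kilobase was at 12.4 ± 0.623 in DKO and 13.0 ± 0.731 in DKO/hA-I spleens, and at 9.05 ± 0.890 in DKO nodes. Apoe was the fourth in all 4 groups, from 3.96 ± 0.245 in DKO/hA-I nodes to 6.84 ± 2.44 in DKO nodes, its range overlapping that of Vldlr in DKO/hA-I nodes. Lcat (0.908 to 2.33), Apoc2 (0.269 to 2.50) and Vldlr (0.329 to 3.50) traded places between groups, with ranges that overlapped between Lcat and its neighbour in DKO spleens, DKO/hA-I spleens and DKO nodes. Vldlr was below Apoa1 in DKO spleens (0.329 ± 0.0367 against 0.743 ± 0.269) and stood above Lcat in DKO/hA-I nodes (3.50 ± 1.30 against 0.908 ± 0.0525). Apob closed the order in all 4 groups, at 0.0167 ± 0.0290 and 0.00901 ± 0.0106 in DKO and DKO/hA-I spleens and at 0 in nodes. Dividing by the longest transcript instead changed the places of Apoc1 and Scarb1 in both spleen groups and of Lcat and Vldlr in DKO nodes.

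**Figure D1:**
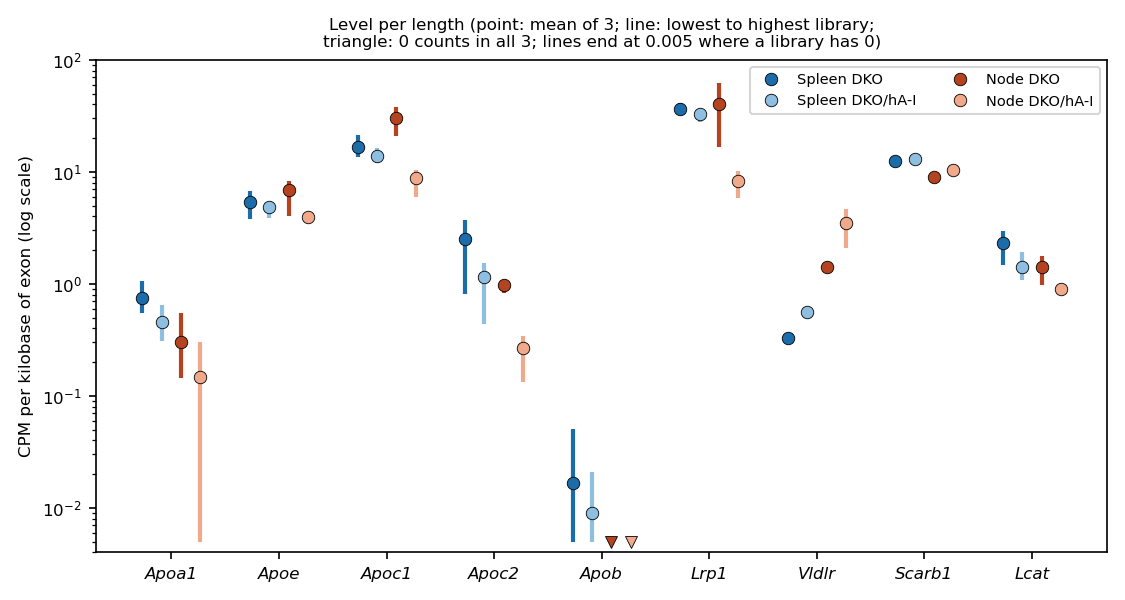
Level of the 9 genes in each group, as CPM per kilobase of merged exons on a log axis (points are means of 3 libraries, lines run from the lowest to the highest library, triangles mark genes with 0 counts in all 3). Lrp1 is at 33.0 to 40.3 in 3 groups and at 8.30 in DKO/hA-I nodes, whereas Vldlr runs from 0.329 in DKO spleens up to 3.50 in DKO/hA-I nodes.

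Apoa1, which encodes the main protein of high density lipoprotein (chromosome 9, 46228580 to 46230466, plus strand, GRCm38), is one of the genes that all groups lack in function. It was near the floor everywhere. Its counts were 7, 7 and 13 in DKO spleens, 9, 4 and 6 in DKO/hA-I spleens, and 2, 4 and 3 in DKO nodes with 4, 2 and 0 in DKO/hA-I nodes. The summed counts were 27 against 19 in spleen, a ratio per count sequenced of 1.62 with a 95% interval of 0.867 to 3.08. In nodes they were 9 against 6, a ratio of 1.65 with an interval of 0.523 to 5.62. A genotype difference was not detectable at this depth, and Apoa1 was under the filter on low counts in every fit that had one. The human transgene was not analysed here, so Apoa1 does not check the genotype labels.

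Apoe (chromosome 7, 19696109 to 19699188, minus strand), the other inactivated gene and a high-affinity ligand of LDL receptor family members, still gave counts. It had 74, 149 and 116 counts in DKO spleens and 94, 121 and 128 in DKO/hA-I spleens, which are 8.17, 14.6 and 11.6 CPM against 8.29, 11.6 and 11.0 CPM. Among nodes it stood at 17.4, 8.60 and 17.8 CPM with the DKO label and at 7.89, 8.58 and 8.92 CPM with the DKO/hA-I label. DKO nodes 1 and 3 were above every DKO/hA-I node and DKO node 2 was inside their range. The log2 fold change of DKO over DKO/hA-I was 0.82 ± 0.28 (SE) in nodes (edgeR adjusted p = 0.126) and 0.14 ± 0.22 in spleens (adjusted p = 0.943). Without DKO node 2 the node value was 1.07 (adjusted p = 0.0039), so that library decides whether Apoe passes the threshold. The tables do not show which exons the counts come from, so they check neither the deletion nor the labels.

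Apoc1 encodes a small exchangeable apolipoprotein that inhibits lipid transfer and lipoprotein lipase, and its level in nodes was higher with the DKO label. It lies 3448 bases from Apoe on the same strand (chromosome 7, 19689481 to 19692660). DKO nodes held 23.6, 15.5 and 28.5 CPM, and DKO/hA-I nodes 7.71, 7.59 and 4.41 CPM. The groups did not overlap: the lowest DKO node had more Apoc1 than any DKO/hA-I node. The means were 22.5 ± 6.55 and 6.57 ± 1.87 CPM (SD, n = 3), a 3.46-fold difference (log2 fold change 1.79 ± 0.30, edgeR adjusted p = 0.0185). Apoc1 in the spleen was at 11.0, 10.1 and 15.8 CPM in DKO and at 9.0, 12.2 and 9.99 CPM in DKO/hA-I libraries. These groups overlapped (log2 fold change 0.24 ± 0.21, adjusted p = 0.929).

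Within a library, Apoc1 had 1.35, 1.80 and 1.60 counts per Apoe count in DKO nodes and 0.976, 0.884 and 0.494 in DKO/hA-I nodes. In spleens this ratio ran from 0.691 to 1.36 over both genotypes. The ratio thus separated the node groups without overlap, while the spleen groups overlapped. It uses the same Apoc1 counts as the comparison above and is no separate result.

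Apoc2 (chromosome 7, 19671579 to 19677941), whose product is the activator of lipoprotein lipase, had few counts in both tissues. It had 9, 4 and 10 counts in DKO nodes and 3, 3 and 1 in DKO/hA-I nodes, too few to pass the filter in the node fit. The groups did not overlap, and the ratio of summed counts (23 against 7) was 3.6 with a 95% interval of 1.5 to 9.95. In spleens the counts were 6, 25 and 30 in DKO and 4, 13 and 14 in DKO/hA-I libraries. Replicate 1 of both genotypes was low, the groups overlapped, and the log2 fold change of 1.13 ± 0.57 did not pass (adjusted p = 0.929).

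Between Apoc1 and Apoc2 lies Apoc4, which is not among the 9 and is given here because it completes the cluster (19678083 to 19681479, 8001 bases from Apoc1 and 141 from Apoc2). It had 32, 10 and 56 counts in DKO nodes and 5, 2 and 2 in DKO/hA-I nodes, a ratio of 11.9 with a 95% interval of 6.04 to 26.9 (log2 fold change 3.45 ± 0.56, edgeR adjusted p = 0.0177). All 3 C apolipoprotein genes of the cluster thus had non-overlapping node groups, with DKO higher, as 15.6% of all node genes tested did, whereas Apoe had overlapping ones. In spleens Apoc4 had 2, 0 and 6 counts in DKO and 2, 2 and 6 in DKO/hA-I libraries. The gene model Gm44805 overlaps Apoc2 and Apoc4 on the same strand. How its reads were divided between them cannot be checked from the tables.

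The bases before the starts of Apoe and Apoc2, the ends of the chromosome 7 cluster whose inner genes differed in nodes, come from RefSeq on GRCm38.p6. That source had start windows for 7 of the 9 genes, without Apoc1 and Scarb1. Each line holds the 250 bases up to the start, read 5′ to 3′ on the minus strand, at chr7:19699189-19699438 for Apoe and chr7:19677942-19678191 for Apoc2. Capitals mark matches to 4 motifs searched on both strands, namely TATAAA (the TATA box), GGGCGG (the GC box), AGGTCA (a nuclear receptor half-site) and GAGGAA (a core bound by the macrophage factor PU.1).
Apoe: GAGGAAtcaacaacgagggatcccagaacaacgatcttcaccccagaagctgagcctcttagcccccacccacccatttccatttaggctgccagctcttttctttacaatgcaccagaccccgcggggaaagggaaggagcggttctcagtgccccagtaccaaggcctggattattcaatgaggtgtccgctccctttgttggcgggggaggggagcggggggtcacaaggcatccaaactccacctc
Apoc2: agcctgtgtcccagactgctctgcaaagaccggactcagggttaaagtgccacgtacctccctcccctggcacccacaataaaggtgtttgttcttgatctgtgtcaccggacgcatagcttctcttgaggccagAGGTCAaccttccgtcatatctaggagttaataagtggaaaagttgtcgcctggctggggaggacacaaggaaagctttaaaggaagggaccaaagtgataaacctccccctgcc

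The search also took in the first 50 bases after each start, 300 in all. Of 32851 such windows in the table, 13.6%, 35.7%, 16.3% and 28.3% held the motifs in the order given. At the starts shown, Apoe had GAGGAA from position -250 relative to the start and its complement from 2, and Apoc2 had AGGTCA from -115 and again from 43. Apoe has other starts in the table, not shown: one had TATAAA from -96, overlapped by its complement from -100, and another had GAGGAA from -132. A match describes the letters only and is no evidence of a bound site.

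Apob (chromosome 12, 7977648 to 8016835, plus strand), the structural protein of very low and low density lipoproteins, had 0 counts in all 6 node libraries. In spleen it had 0, 0 and 7 counts in DKO and 1, 3 and 0 in DKO/hA-I libraries. With 3 counts as the limit that 0 allows, a node level of up to 0.506 CPM would go unseen in the shallowest library. Of 14 hepatocyte markers, 7 were at 0 in all DKO nodes and 5 in all DKO/hA-I nodes. Alb, the albumin gene, had 0 to 1 count per node and 0 to 26 per spleen library. The list summed to 110 to 264 CPM in nodes and 346 to 437 CPM in spleens. Of the 4 markers tested, 2 were called higher and 1 lower in node in DKO mice. In DKO/hA-I mice 3 were called higher and 1 lower.

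**Figure D2:**
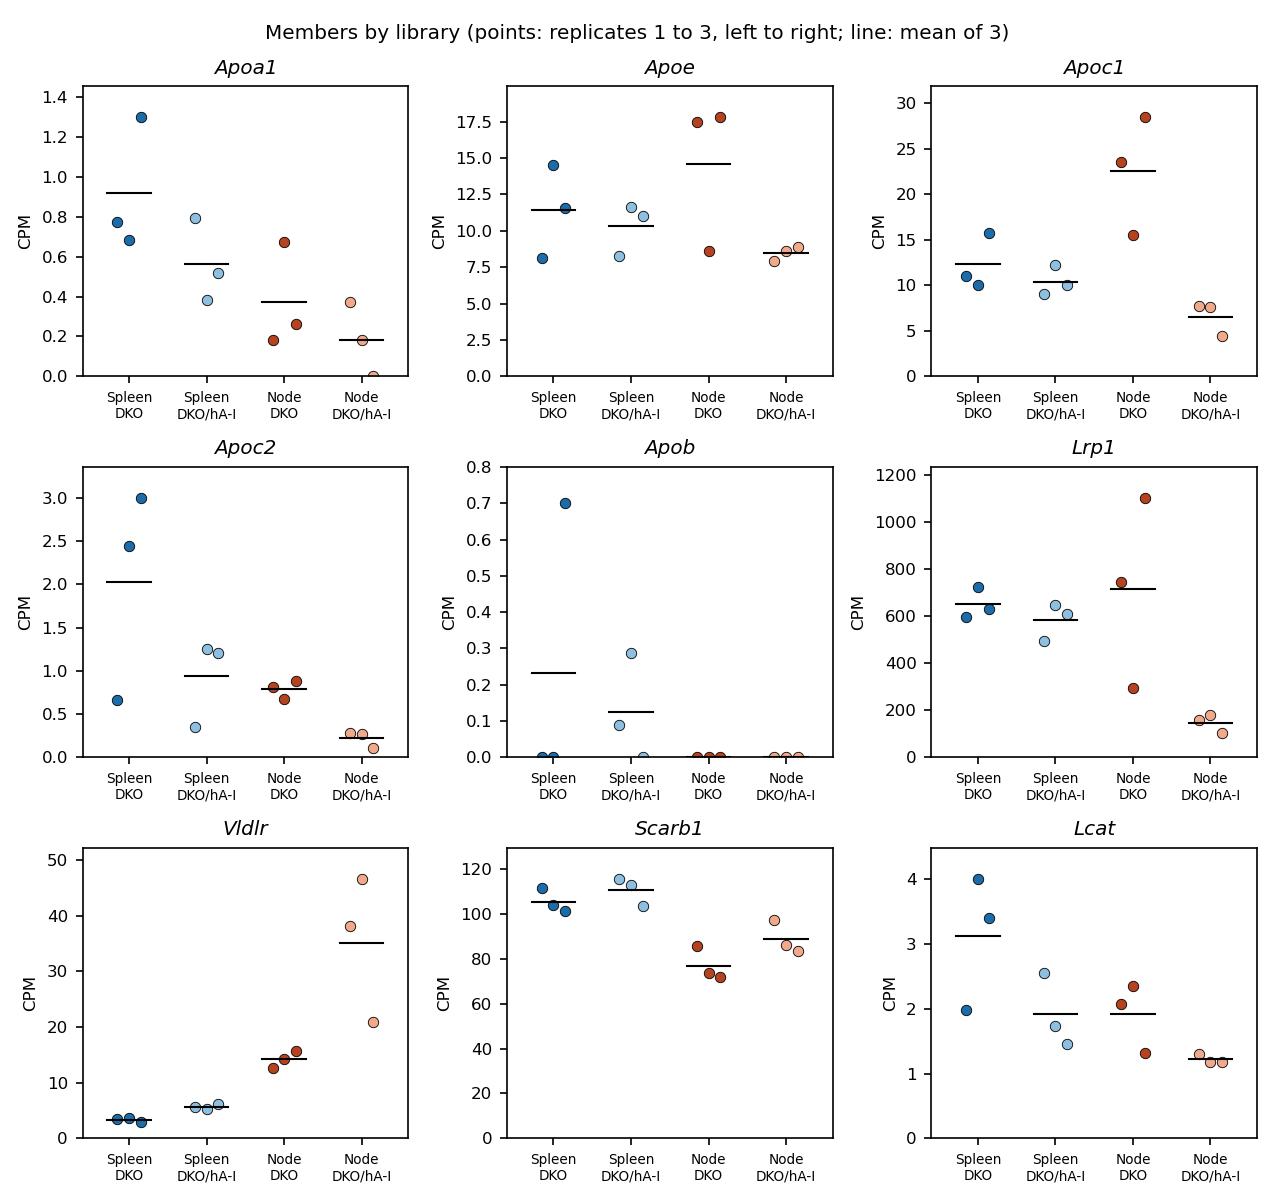
CPM of each of the 9 genes in the 12 libraries (points, replicates 1 to 3 from left to right in each group) with the group mean (line), each panel on its own linear axis from 0. Apoc1 and Lrp1 are higher in all 3 DKO nodes than in any DKO/hA-I node, Vldlr is lower in all 3, and Apoe has 1 DKO node, at 8.60 CPM, among the DKO/hA-I nodes.

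Lrp1 encodes a large endocytic and signalling receptor of macrophages, hepatocytes and stromal cells, which takes up remnant particles and many protease complexes. In nodes it had the largest log2 fold change of the 6 members tested. Its gene lies on the minus strand of chromosome 10 (127538161 to 127621148). DKO nodes stood at 747, 293 and 1103 CPM and DKO/hA-I nodes at 157, 180 and 104 CPM. All DKO nodes were above all DKO/hA-I nodes, with DKO node 2 closest to them. The means were 714 ± 406 and 147 ± 39.3 CPM, a 4.90-fold difference (log2 fold change 2.29 ± 0.46, edgeR adjusted p = 0.031).

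Lrp1 in the spleen stood at 597, 725 and 630 CPM in DKO and at 497, 650 and 608 CPM in DKO/hA-I libraries. These ranges overlapped (log2 fold change 0.14 ± 0.13, adjusted p = 0.929). The lowest of the 9 other libraries, DKO node 2, was above each of the 3 DKO/hA-I nodes, so those nodes were the low group of the study. A non-coding gene model, Gm16217, overlaps Lrp1 on the opposite strand, and reads of the pair cannot be told apart if strand was not used in counting.

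Vldlr encodes the very low density lipoprotein receptor, which binds triglyceride-rich particles and Reelin and is prominent in fat, muscle, heart and endothelium. It moved opposite to Lrp1 in nodes. It lies on the plus strand of chromosome 19 (27216484 to 27254231). DKO nodes held 12.6, 14.3 and 15.7 CPM and DKO/hA-I nodes 38.2, 46.6 and 20.8 CPM. The groups did not overlap, and DKO/hA-I node 3 was nearest to the DKO range. The means were 14.2 ± 1.56 and 35.2 ± 13.1 CPM, 2.46-fold lower in DKO (log2 fold change -1.30 ± 0.29, edgeR adjusted p = 0.0399).

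In spleens Vldlr was at 3.42, 3.61 and 2.90 CPM in DKO and at 5.65, 5.19 and 6.12 CPM in DKO/hA-I libraries. These groups did not overlap either, with a log2 fold change of -0.78 ± 0.20 and an unadjusted p of 0.00334, but over all genes the adjusted p was 0.929. The test of the difference between the tissues gave -0.54 ± 0.37 (adjusted p = 0.511).

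Within a library the contrast between the receptors was wider, which in nodes follows from the opposite directions given above and is no separate result. DKO nodes had 59.3, 20.5 and 70.2 Lrp1 counts per Vldlr count, and DKO/hA-I nodes 4.12, 3.87 and 4.98. DKO spleens had 175, 201 and 217, and DKO/hA-I spleens 88.0, 125 and 99.4. In both tissues the genotype groups did not overlap in this ratio, and every spleen library was above every node library.

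The upstream bases of the 2 receptor genes that differed in opposite directions follow in the same way, for Lrp1 at chr10:127621149-127621398 (minus strand) and for Vldlr at chr19:27216234-27216483 (plus strand).
Lrp1: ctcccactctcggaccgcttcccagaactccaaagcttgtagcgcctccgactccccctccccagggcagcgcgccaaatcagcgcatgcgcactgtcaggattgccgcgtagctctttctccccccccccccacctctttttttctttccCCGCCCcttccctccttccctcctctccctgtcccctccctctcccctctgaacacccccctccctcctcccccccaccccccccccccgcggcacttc
Vldlr: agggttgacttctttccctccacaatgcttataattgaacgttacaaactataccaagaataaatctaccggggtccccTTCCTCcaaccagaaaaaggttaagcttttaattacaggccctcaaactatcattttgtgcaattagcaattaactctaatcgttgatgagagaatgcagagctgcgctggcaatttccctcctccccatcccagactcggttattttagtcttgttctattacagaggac

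Lrp1 had the complement of GGGCGG from -99, and Vldlr had the complement of GAGGAA from -171. At these starts the pair had no motif of the 4 in common, whereas a second Vldlr start, not shown, had the complement of GGGCGG from -42.

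Scarb1 encodes the scavenger receptor that takes up cholesteryl esters from high density lipoprotein (chromosome 5, 125277087 to 125341094, minus strand). DKO nodes stood at 85.6, 73.5 and 71.7 CPM and DKO/hA-I nodes at 97.1, 86.1 and 83.5 CPM, with DKO node 1 inside the DKO/hA-I range. The log2 fold change was -0.20 ± 0.12 (edgeR adjusted p = 0.379). Spleens stood at 111, 104 and 101 CPM in DKO and at 115, 113 and 104 CPM in DKO/hA-I libraries, which overlapped (log2 fold change -0.08 ± 0.10, adjusted p = 0.933). In both tissues this was the smallest log2 fold change among the members tested.

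Lcat, the plasma enzyme that esterifies cholesterol on high density lipoprotein (chromosome 8, 105939551 to 105943382, minus strand), was a low transcript in all libraries. It had 23, 14 and 15 counts in DKO nodes and 14, 13 and 11 in DKO/hA-I nodes, or 2.07, 2.36 and 1.32 CPM against 1.30, 1.17 and 1.18 CPM. The groups were apart by a narrow margin, and the log2 fold change of 0.63 ± 0.33 did not pass (adjusted p = 0.287). In spleens it had 18, 41 and 34 counts in DKO and 29, 18 and 17 in DKO/hA-I libraries, with overlapping groups (log2 fold change 0.70 ± 0.33, adjusted p = 0.929). Gm16156 overlaps Lcat on the opposite strand, with the same limit as for Lrp1.

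In nodes, then, 3 of the 6 members tested were called at an adjusted p under 0.05, 2 higher and 1 lower in DKO. Over all 14012 genes tested 6.87% were called, 3.95% as higher and 2.92% as lower. Groups did not overlap for 4 of the 6 (Apoc1, Lrp1, Vldlr and Lcat), against 30.5% of all genes tested. Without scaling for library composition the Lcat groups overlapped and the Scarb1 groups did not, which again made 4 of 6. In spleens 0 of 7 were called by edgeR, DESeq2 or limma voom, 1 of 7 (Vldlr) had an unadjusted p under 0.05 and 1 of 7 had non-overlapping groups. Over all 14009 spleen genes the shares were 0.00714% called, 4.4% at an unadjusted p under 0.05 and 10.6% with non-overlapping groups, so the spleen members were near the background. With the middle number of the animal code as a block in the spleen fit, 515 genes and again 0 of the 7 members were called. DKO spleen 1 was the only library with its middle number, so the blocked fit in effect left it out of the genotype comparison. In the blocked fit Vldlr had a log2 fold change of -0.79 (edgeR adjusted p = 0.0937) and Apoc2 one of 1.61 (adjusted p = 0.0759).

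The 3 node calls depended on which libraries were kept. Lrp1 stayed under the threshold only without DKO node 2 (adjusted p = 0.00136). It was at 0.070 and 0.0878 without DKO nodes 1 and 3, and at 0.0958, 0.106 and 0.112 without DKO/hA-I nodes 1, 2 and 3. Apoc1 stayed under it without DKO node 2 (0.00135) and DKO/hA-I node 3 (0.0477), and was at 0.0538, 0.0682, 0.0624 and 0.0733 without DKO nodes 1 and 3 and DKO/hA-I nodes 1 and 2. Vldlr stayed under it only without DKO/hA-I node 3 (0.00805). It was at 0.0941, 0.054 and 0.109 without DKO nodes 1, 2 and 3, and at 0.116 and 0.137 without DKO/hA-I nodes 1 and 2. Directions did not turn: the log2 fold changes ran from 1.82 to 2.66 for Lrp1, from 1.56 to 1.99 for Apoc1 and from -1.58 to -1.04 for Vldlr. In the authors' deposited table for nodes, Apoc1 (q = 0.00428) and Lrp1 (q = 3.41e-06) were called and Vldlr was not (q = 0.0879), while for spleens the authors' deposited table called 0 of the 9.

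Cell type markers differed between the node groups as well. Lipid-laden macrophage markers summed to 11096, 3799 and 14425 CPM in DKO nodes and to 1760 to 2320 CPM in DKO/hA-I nodes, with 11 of 13 called higher. The order of the DKO nodes was the same as for Lrp1 and Apoc1, and summed macrophage markers and summed adipocyte markers had that order too. The adipocyte genes Adipoq, Plin1 and Cidea did not. Adipoq and Plin1 were highest in DKO node 2 (4.21 and 3.54 CPM), and Cidea was lowest in DKO node 1 (0.450 CPM). Macrophage markers summed to 6421 to 10651 CPM against 3883 to 5012 CPM, with 8 of 14 called higher and 1 lower. Per 1000 CPM of macrophage markers, Lrp1 stood at 90.3, 45.7 and 104 CPM in DKO nodes and at 31.3, 43.7 and 26.7 in DKO/hA-I nodes. Apoc1 stood at 2.85, 2.42 and 2.67 against 1.54, 1.84 and 1.13 on this scale, and neither gene's groups overlapped. Per 1000 CPM of lipid-laden macrophage markers both genes' node groups overlapped. Lrp1 was at 67.3, 77.2 and 76.5 CPM in DKO nodes against 67.7, 85.4 and 59.0 in DKO/hA-I nodes. Apoc1 was at 2.12, 4.08 and 1.98 against 3.32, 3.59 and 2.50. Spleens of both genotypes were above all nodes on this scale, with Lrp1 at 331 to 378 CPM and Apoc1 at 5.24 to 8.94. In bulk tissue, fewer cells of a type and less RNA per cell cannot be told apart, and the part of macrophage content in these results was not tested.

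Adipocyte markers went the other way, with 13 of 15 called lower in DKO nodes. Their sums nevertheless overlapped, at 727 to 2679 CPM in DKO and 1287 to 3615 CPM in DKO/hA-I nodes, and 1 gene of the list, Lpl, is also in the lipid-laden macrophage list. Adipoq, the gene of the fat cell hormone adiponectin, stood at 1.53, 4.21 and 2.03 CPM in DKO nodes and at 89.1, 175 and 40.5 CPM in DKO/hA-I nodes. Vldlr had the order of Adipoq among the DKO/hA-I nodes but not among the DKO nodes. Endothelial markers summed to 1002 to 1126 CPM in DKO and 1344 to 1474 CPM in DKO/hA-I nodes, with 3 of 14 called lower. Per 1000 CPM of endothelial markers Vldlr stood at 11.2, 13.4 and 15.7 CPM in DKO nodes and at 25.9, 32.5 and 15.5 CPM in DKO/hA-I nodes, and on this scale the groups overlapped. Per 1000 CPM of adipocyte markers Vldlr stood at 9.12, 19.7 and 5.86 CPM in DKO nodes. In DKO/hA-I nodes it stood at 13.2, 12.9 and 16.2 CPM, and these groups overlapped too. In spleens, where Adipoq was at 0.1 to 0.879 CPM and no marker of these lists was called, Vldlr had its lowest levels. The part of fat or endothelium in the Vldlr difference was not tested.

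**Figure D3:**
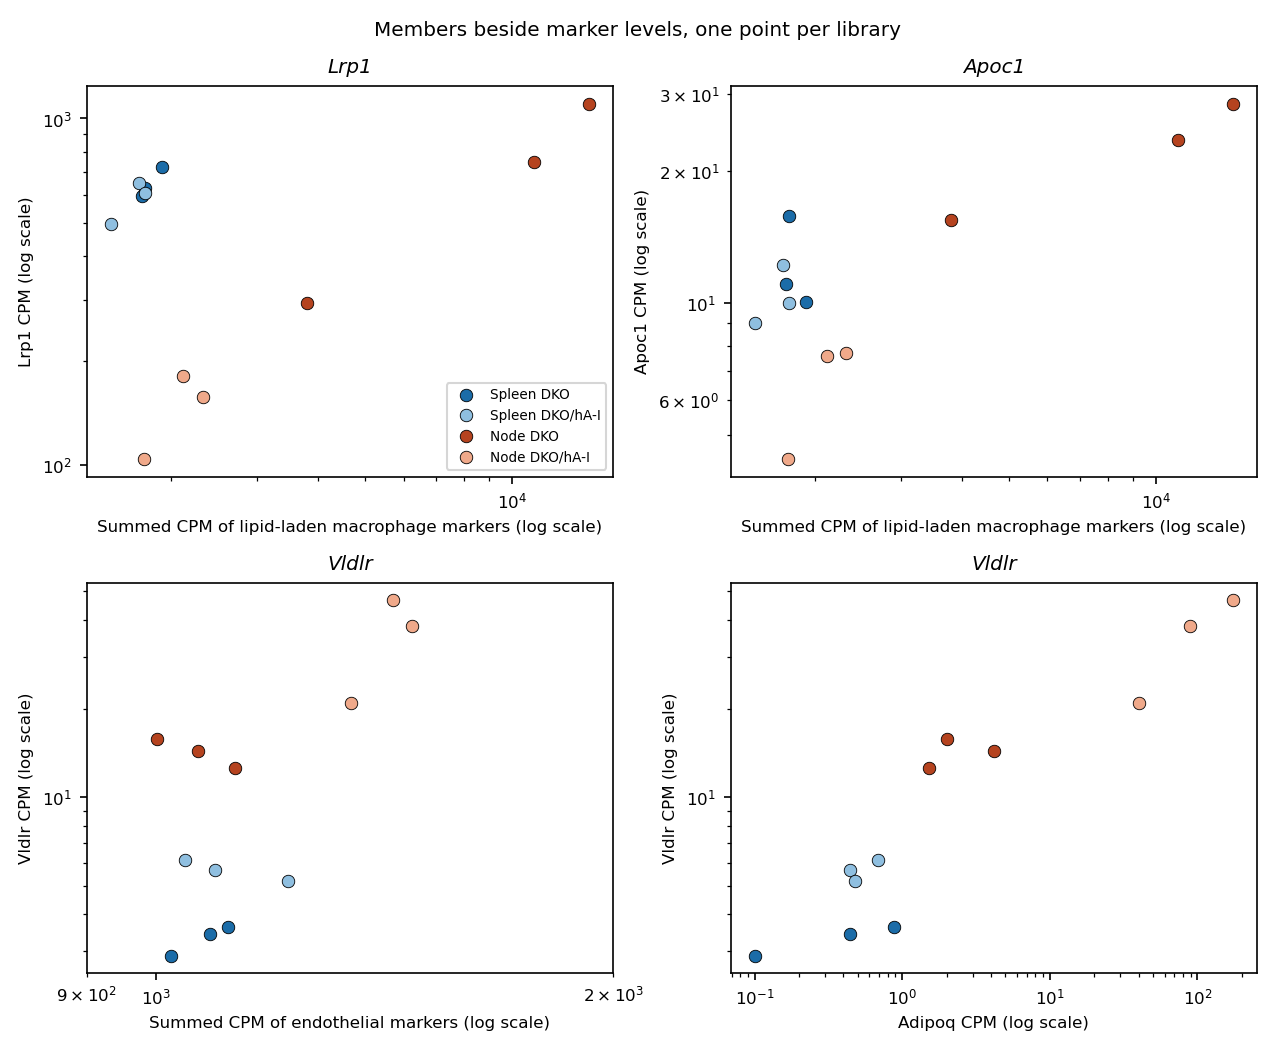
Lrp1 and Apoc1 against the summed CPM of lipid-laden macrophage markers, and Vldlr against the summed CPM of endothelial markers and the CPM of Adipoq, 1 point per library on log axes, coloured by group. DKO nodes sit at 3799 to 14425 CPM of lipid-laden macrophage markers and the DKO/hA-I nodes at 1760 to 2320, and Vldlr is high in the 3 nodes whose Adipoq is at 40.5 to 175 CPM.

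Fibroblastic stroma markers summed to 2119 to 3568 CPM in DKO and 1367 to 1401 CPM in DKO/hA-I nodes, with 7 of 13 called higher in DKO. B cell markers summed to 2607 to 3923 against 4368 to 4942 CPM and T cell markers to 870 to 1313 against 1461 to 2076 CPM, with 1 of 10 called lower in each list. Of the other lists 1 of 4 hepatocyte markers tested was called lower, and 0 of 10 red pulp macrophage markers (1420 to 1861 against 652 to 1051 CPM) and 0 of 5 erythroid markers tested (24 to 66 against 111 to 342 CPM) were called. In spleens 0 markers of the 10 lists were called by edgeR.

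Between tissues, with DKO mice alone, 3 of 7 members tested were called, 2 higher and 1 lower in node than in spleen. Vldlr was 4.28-fold higher in DKO nodes (log2 fold change 2.10 ± 0.27, edgeR adjusted p = 0.000106), Apoc1 was 1.84-fold higher (0.88 ± 0.26, adjusted p = 0.0277) and Scarb1 was 1.37-fold lower (-0.45 ± 0.11, adjusted p = 0.00867). Of all 14608 genes tested, 22.8% were called, 11.3% higher and 11.5% lower. Groups did not overlap for 2 of the 7 (Vldlr and Scarb1), against 32.7% of genes. Lrp1 had a log2 fold change of 0.14 ± 0.35 (adjusted p = 0.822) and Apoe one of 0.37 ± 0.27 (adjusted p = 0.36).

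The Apoc1 call in DKO was kept without DKO node 2 (adjusted p = 0.00361) and DKO spleen 3 (0.0197). It was lost without DKO nodes 1 and 3 (0.0655 and 0.128) and DKO spleens 1 and 2 (0.0834 and 0.112). Without DKO spleen 1, whose Apoc2 and Lcat were the lowest of its group, these 2 genes were called lower in node (adjusted p = 0.0148 and 0.0456, against 0.0956 and 0.134 with it). Without DKO node 2, Apoe was called higher in node (adjusted p = 0.0472).

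With DKO/hA-I mice alone, 3 of 7 were called as well, 1 higher and 2 lower in node. Vldlr was 6.22-fold higher in nodes (log2 fold change 2.64 ± 0.25, edgeR adjusted p = 8.4e-06), Lrp1 was 3.97-fold lower (-1.99 ± 0.36, adjusted p = 0.00124) and Scarb1 was 1.25-fold lower (-0.32 ± 0.11, adjusted p = 0.0477). Of all genes tested 25.7% were called, 11.8% higher and 14% lower. Groups did not overlap for 6 of the 7 members (Apoe was the exception), against 45.6% of genes. Apoc1 (-0.65 ± 0.28, adjusted p = 0.105) and Apoc2 (-2.0 ± 0.71, adjusted p = 0.0569) did not pass.

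The Scarb1 call in DKO/hA-I mice was kept without node 1 (adjusted p = 0.0377). It was lost without nodes 2 and 3 (0.146 and 0.148) and spleens 1, 2 and 3 (0.134, 0.128 and 0.0715), and stood at 0.0507 with median-of-ratios scaling and 0.0668 with no filter. Apoc2 was called without DKO/hA-I spleen 1 (adjusted p = 0.0261) and by DESeq2 (0.048). Whatever the genotype label, every node library had more Vldlr than any spleen library (12.6 CPM or more against 6.12 or less) and less Scarb1 (97.1 CPM or less against 101 or more). Of 10 red pulp macrophage markers 8 were called lower in node in DKO and 10 in DKO/hA-I mice, and of 10 T cell markers 6 and 10 were called higher. Erythroid markers summed to 8227 to 40063 CPM in spleens. The part of cell makeup in these tissue differences was not tested, nor was that of the animal code, which shares no middle number between tissues.

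**Figure D4:**
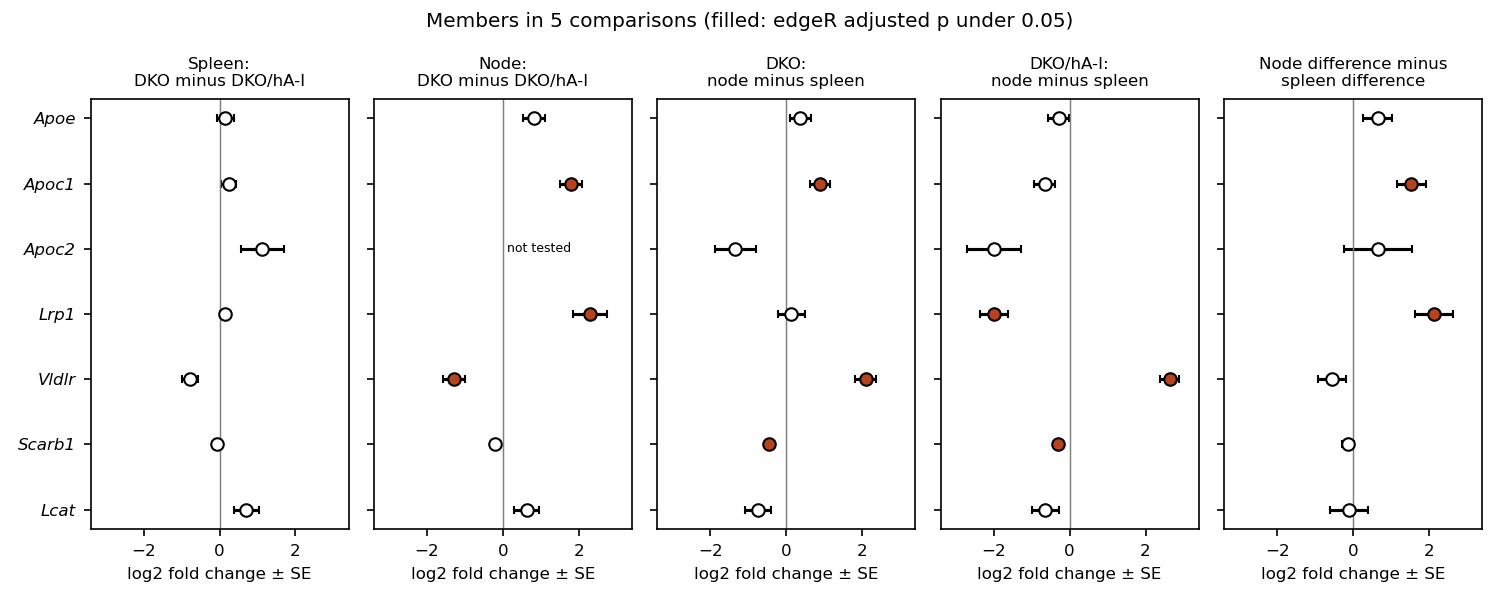
Log2 fold changes with standard errors of the members tested in 5 comparisons, namely DKO minus DKO/hA-I in spleen and in node, node minus spleen in each genotype, and the node difference minus the spleen difference. Filled points have an edgeR adjusted p under 0.05: Apoc1, Lrp1 and Vldlr in node, Vldlr and Scarb1 between tissues in both genotypes, with Apoc1 in DKO and Lrp1 in DKO/hA-I mice, and Apoc1 and Lrp1 in the last panel.

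Whether the genotype difference itself differed between tissues was tested as the node difference minus the spleen difference. For Apoc1 this was 1.54 ± 0.38 on the log2 scale (edgeR adjusted p = 0.0466) and for Lrp1 2.13 ± 0.50 (adjusted p = 0.0375). These were 2 of 7 members tested, against 3.33% of all genes called in either direction and 2.04% called as higher. Because these comparisons share the node libraries with those above, they are not independent of them. Both calls held without DKO node 2 (adjusted p = 0.0061 and 0.000245) and were lost without any other single library, at 0.0534 to 0.123 for Apoc1 and 0.0536 to 0.106 for Lrp1. For Apoe the value was 0.66 ± 0.38 (adjusted p = 0.43), for Scarb1 -0.14 ± 0.15 (0.723) and for Lcat -0.09 ± 0.50 (0.96).

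Other genes of the same pathways were taken from 3 lists. Of 17 other apolipoprotein and related genes tested in nodes, 4 were called higher and 1 lower in DKO, with a median log2 fold change of -0.16 against 0.01 over all genes. Besides Apoc4 these were Apod, a lipocalin that carries small lipids (35.6 ± 9.40 against 8.28 ± 4.00 CPM, log2 fold change 2.12 ± 0.36), and Clu, the chaperone clusterin (1000 ± 66.9 against 642 ± 81.3 CPM, 0.65 ± 0.14). Apobec1, which edits the Apob transcript, is named to complete the count and was chosen after its value was seen (1.14, edgeR adjusted p = 0.0437). The lower gene was Apol6, at 1.1 ± 0.396 against 6.61 ± 2.30 CPM (-2.49 ± 0.39). In spleens 0 of 19 were called, with Apoa4 at 2.81 ± 0.764 against 1.5 ± 0.696 CPM and Apof at 1.56 ± 0.300 against 2.18 ± 0.403 CPM.

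Of 21 other LDL receptor family genes and partners tested in nodes, 1 was called higher and 0 lower, with a median of 0.20. The 1 was Lrp12, a receptor of that family, at 55.6, 25.8 and 73.2 CPM in DKO nodes and at 15.9, 15.2 and 10.4 CPM with the DKO/hA-I label. Every DKO node was above every DKO/hA-I node (log2 fold change 1.92 ± 0.37, edgeR adjusted p = 0.0288). In spleens 0 of 20 were called, with the endocytic adaptor gene Dab2 at 18 ± 2.73 against 26.0 ± 3.72 CPM and Lrp5, a Wnt co-receptor gene, at 74.1 ± 4.34 against 63.3 ± 8.69 CPM.

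Of 21 genes of lipases, lipid transfer and remodelling tested in nodes, 4 were called higher and 0 lower in DKO, with a median of 0.81. They were Pltp, the phospholipid transfer protein (616 ± 307 against 99.6 ± 29.9 CPM, log2 fold change 2.64 ± 0.39), Pla2g7, a lipoprotein-associated phospholipase (258 ± 87.0 against 55.3 ± 14.4 CPM, 2.23 ± 0.29), Lipa, the lysosomal acid lipase (455 ± 234 against 127 ± 11.2 CPM, 1.85 ± 0.38), and Pla2g15, the lysosomal phospholipase (132 ± 22.2 against 63.9 ± 11.6 CPM, 1.06 ± 0.18). In spleens 0 of 21 were called, with Pltp at 83.1 ± 2.49 against 72.7 ± 6.74 CPM and Pon3, a paraoxonase, at 21.9 ± 3.09 against 18.4 ± 3.07 CPM. Of Apoc4, Apod, Clu, Apol6, Lrp12, Pltp, Pla2g7, Lipa and Pla2g15, all 9 kept their node calls without DKO node 2. Without DKO/hA-I node 2 Apod alone did (edgeR adjusted p = 0.0304), the others being at 0.0536 to 0.155. Calls were kept by 4 of the 9 without DKO node 1, by 2 without DKO node 3, by 2 without DKO/hA-I node 1 and by 2 without DKO/hA-I node 3.

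Between tissues, the other apolipoprotein list had 6 higher and 5 lower calls in node among 22 tested in DKO, and 5 higher and 4 lower in DKO/hA-I mice. Apol8, an apolipoprotein L gene, had 3 counts in DKO nodes against 1353 in DKO spleens, a ratio of 0.00229 (95% interval 0.000471 to 0.0067), and 3 against 822 in DKO/hA-I mice. Apod was higher in DKO nodes than in DKO spleens (35.6 against 1.55 CPM, edgeR adjusted p = 3.7e-06) and Apol6 in DKO/hA-I nodes than in DKO/hA-I spleens (6.61 against 0.502 CPM, adjusted p = 2.7e-05). Of 21 receptor genes, 7 were higher and 4 lower in DKO nodes, and 4 higher and 4 lower in DKO/hA-I nodes. The sorting receptor Sort1 (26.9 ± 4.08 against 86.7 ± 2.56 CPM) and the scavenger receptor Stab2 (86.9 ± 32.0 against 366 ± 31.4 CPM) were lower in node in DKO mice. Stab2 (106 ± 31.5 against 375 ± 36.0 CPM) and Lrp5 (29.1 ± 2.03 against 63.3 ± 8.69 CPM) were the lower ones of lowest adjusted p in DKO/hA-I mice.

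Of the 21 lipase, transfer and remodelling genes, 10 were higher and 2 lower in DKO nodes than in DKO spleens, and 4 higher and 5 lower in DKO/hA-I nodes. Pltp (616 ± 307 against 83.1 ± 2.49 CPM) and the cholesterol exporter Abca1 (1024 ± 387 against 239 ± 37.0 CPM) were the ones of lowest adjusted p in DKO mice. In DKO/hA-I mice they were Pla2g15, lower in node (63.9 ± 11.6 against 132 ± 8.23 CPM), and Angptl4, an inhibitor of lipoprotein lipase, higher in node (58.5 ± 17.3 against 17.2 ± 4.85 CPM).

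Genes whose pattern over the 12 libraries was most like that of a member were found by the root mean square difference of log2 CPM around each gene's mean, among 12911 genes. This is a description without a test, and the points share library depth and composition. Nearest to Lrp1 were Itgb5, Slc11a1 and Emr1, the F4/80 macrophage marker gene (0.218 to 0.272). Nearest to Apoc1 were the cathepsin gene Ctsb and the complement genes C1qc and C1qa (0.231 to 0.242), and nearest to Vldlr were the coagulation factor gene F8, Hc and Car4 (0.216 to 0.376). Apoe was nearest to Crip1, Atox1 and Matk (0.137 to 0.152), Scarb1 to Midn, Scaf4 and Mepce (0.0912 to 0.0978), and Lcat to Pole3, Phf5a and Ftsj1 (0.203 to 0.207). F8 rose and fell with Vldlr across groups, at 11.0 CPM in DKO spleens, 15.9 in DKO/hA-I spleens, and 42.6 in DKO nodes against 98.7 in DKO/hA-I nodes.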

How the data were processed

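Gene counts were deposited as 1 table per tissue, 3 libraries per group, 12 in all. Per the submitters' processing notes, Trimmomatic, Bowtie, TopHat and Cuffdiff were used with GRCm38 (mm10), and the notes give neither roles nor order. How the authors made the deposited raw counts from those tools, and with which annotation and strand setting, is not stated in the sources used here. The q-values quoted are from the authors' deposited comparison of the genotypes in each tissue, and the 4 columns of group means in FPKM beside them were not used, since their header does not name the groups.

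The 9 members and the gene lists were chosen with earlier results of these data known. Named genes are all members and, from each of 3 pathway lists, up to 4 called genes by adjusted p in each genotype comparison and up to 2 in each tissue comparison (up to 2 of lowest p where none was called). Some genes of the receptor list are not reported here and were left out of its counts and median. For marker lists the counts and, by node group, the summed CPM are given, and 3 genes of like pattern for each member averaging at least 1 CPM, passing over numbered gene models and antigen receptor segments, from log2 (CPM + 0.5).

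The count tests used edgeR 4.0.16, run under R 4.3.3 (TMM scaling, a minimum count of 10 and a total of 15, robust quasi-likelihood). Genotypes were compared within each tissue (6 libraries), and tissues and the difference between tissues in a fit of 12. Every adjusted p is Benjamini-Hochberg over all genes tested, called under 0.05, and log2 fold changes carry standard errors. CPM are on the scale of the 12-library fit. Members under the filter were given as counts, with exact 95% intervals on ratios. DESeq2 1.42.0, limma voom 3.58.1, median-of-ratios scaling, no filter, blocks and leaving out each library were tried as alternatives. Of the 23284 symbols, 20919 (89.8%) matched the GENCODE vM21 annotation on GRCm38, from which exon lengths come. The fits were tested on simulated data. A library holds 5911835 to 11950825 counts, which sets the precision for the rarest members.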

Additional observations from a re-analysis of the deposited data

Results flagged for a closer look

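The genotype difference in nodes minus that in spleens passed an edgeR adjusted p of 0.05 for 2 of 7 members tested and for 8 genes of the pathway lists (3 of 22, 1 of 21 and 4 of 21 tested), against 3.33% of all 14608 genes. Among the members it was 1.54 ± 0.38 on the log2 scale for Apoc1 (adjusted p = 0.0466) and 2.13 ± 0.50 for Lrp1 (adjusted p = 0.0375). Of the genes of lipases, transfer and remodelling it was 2.43 ± 0.37 for Pla2g7 (adjusted p = 0.00505), 2.44 ± 0.42 for Pltp (0.0095), 1.90 ± 0.42 for Lipa (0.0283) and 0.91 ± 0.21 for Pla2g15 (0.0388). Lrp12 of the receptor list had 1.88 ± 0.43 (0.0356). Of the other apolipoprotein genes Apod had 2.45 ± 0.55 (0.0313), Apobec1, named after its value was seen, had 1.26 (0.0462), and Apol6 was the 1 of these 10 genes with a negative value, -3.39 ± 0.61 (0.0115). The lipid-laden macrophage markers had the same test passed by 11 of 13, and their part in these values was not tested.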

How the results depend on the processing

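Over all genes, the spleen count of 1 became 5 with DESeq2, 515 with the middle number of the animal code as a block and 1 to 167 when each library was left out. The node count of 962 became 1967 with DESeq2, 2253 in the fit of all 12 libraries and 115 to 2245 when each library was left out, and the share called as higher in DKO ran from 20.6% to 69.3% in the latter. The count for the difference between tissues, 487, became 973 with DESeq2, 242 with limma voom and 179 to 1160 when each library was left out. The cause was not tested.

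Of the members, 0 to 3 were called in nodes when each library was left out. For the difference between tissues the number was 0 to 2 in that case, 0 with voom and 1 (Apoc1) with no filter. In nodes Vldlr had an adjusted p of 0.0676 with voom and Lrp1 one of 0.052 with no filter. Signs turned for values that were not called: Apoe in spleen (-0.049 to 0.32 with each library left out), Lrp1 between tissues in DKO (-0.059 with voom, -0.31 to 0.51 with each library left out) and Lcat in the difference (-0.36 to 0.14, with 0.12 and 0.06 also above 0). Dividing by the longest transcript left 7 of 9 members at their place in 3 groups.

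Same-numbered libraries of the 2 genotypes share only a number: their deviations correlated at -0.001, 0.108 and -0.1 in spleen and at -0.141, 0.026 and -0.034 in node. With the replicate block 438 node genes and 0 node members, and 299 genes and 0 members in the difference, were called. The replicate block also ended the call of Apoc1 between tissues in DKO (adjusted p = 0.0509) and called Apoc2 between tissues in DKO/hA-I mice (0.0483). The animal code block called 0 spleen members. The count of non-overlapping groups without scaling for composition was chosen after seeing the data.

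Depth limits Apoa1, Apob, Apoc2 and Lcat most, with at most 41 counts in a library. In simulated data 63% of 2-fold and 98% of 4-fold changes were recovered in nodes, and 91% and 99% in spleens. These rates were not broken down by count. They are therefore not rates for genes with counts as low as those of Apoa1, Apob, Apoc2 and Lcat, or of Vldlr in spleens. Recovery at such counts was not tested separately.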
